A study of Mus musculus with 12 samples.

Results

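Chemokines are small secreted proteins that steer the movement of leukocytes and other cells, and they act through receptors coupled to G proteins. Most are named by the spacing of their first cysteines as CC ligands (Ccl) or CXC ligands (Cxcl), with the matching receptors named Ccr and Cxcr, while the atypical receptors (Ackr) bind chemokines without the usual G protein signal and remove or carry them. In sensory ganglia the family is known for immune cell traffic after nerve injury, and some members act on neurons directly. The genes described here are those of the deposited table whose mouse symbol is Ccl, Cxcl, Ccr, Cxcr or Ackr followed by a number and an optional letter. The rule found 56 genes of 51341 in the table: 23 CC ligands, 13 CXC ligands, 10 CC receptors, 6 CXC receptors and 4 atypical receptors.

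RNA was sequenced from the trigeminal ganglia, which hold the sensory neurons of the face and meninges, of 12 mice of the CD1 strain. By their titles 6 mice were responders to the neuropeptide PACAP (pituitary adenylate cyclase-activating polypeptide). The other 6 were nonresponders, with 3 males and 3 females in each group. The series asks about light aversion after PACAP and its inheritance. The sources used here do not give how a response was scored, the age of the mice, or whether and when each mouse had PACAP before dissection. Levels are given as FPKM, that is, fragments per kilobase scaled to library depth, so that genes of different length can be set beside each other.

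The libraries held between 12648 and 13994 genes at 1 FPKM or more. Sensory neuron markers summed to between 2354 and 4624 FPKM in the 12 mice, and none of the 16 genes of that list was at 0 in all of them. Responder 1 and nonresponder 4 stood apart, as the highest mouse for 24.4% and 15.97% of all tested genes. Responder 1 had the lowest sensory neuron sum, the highest endothelial sum (118 FPKM) and a pituitary marker sum of 77998 FPKM against 6863 FPKM or less in the other mice. In nonresponder 4 the summed neutrophil markers reached 4420 FPKM against 9.40 to 904 FPKM in the other mice, and all 13 genes of that list were highest there. The B cell, macrophage and red cell markers of nonresponder 4 were also the highest of the 12 mice. Pituitary markers had higher values in responders for all 11 tested genes, with 0 called by limma and 9 at an unadjusted p under 0.05, where 7.4% of all tested genes passed. Their sums overlapped, at 359 to 77998 FPKM in responders and 27.3 to 1053 FPKM in nonresponders. Their part in the results was not tested. The first number of the sample code took 4 values in responders and 3 others in nonresponders. What that number stands for is not given, and it cannot be told apart from the response.

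Few chemokine genes were well expressed. Of the 56 genes, 17 had a mean of at least 1 FPKM over the 12 mice and 5 had a mean of at least 5 FPKM. The highest means were those of Cxcl12 (16.2 FPKM), Ccl27a (15.99 FPKM), Ackr1 (12.6 FPKM), Cxcr4 (9.90 FPKM) and Ccl11 (8.08 FPKM), followed by Ccl6 at 4.50 FPKM. This order was not firm, because the SD over mice was 18.6 FPKM for Cxcl12, 10.7 FPKM for Ackr1 and 9.07 FPKM for Cxcr4, against 3.29 FPKM for Ccl27a and 1.68 FPKM for Ccl11. Neighbours in the order were not tested against each other within mice. Outside nonresponder 4, Ccl6 stayed at or below 4.97 FPKM and Ccl11 at or above 5.87 FPKM. The summed level of the 56 genes lay between 66.6 and 102 FPKM in 11 mice and at 242 FPKM in nonresponder 4. Of the 56 genes 25 never reached 1 FPKM, 12 reached it in 1 or 2 mice, and 19 reached it in at least 3 mice and entered the tests. Cxcl15 was listed at 0 in all mice.

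**Figure D1:**
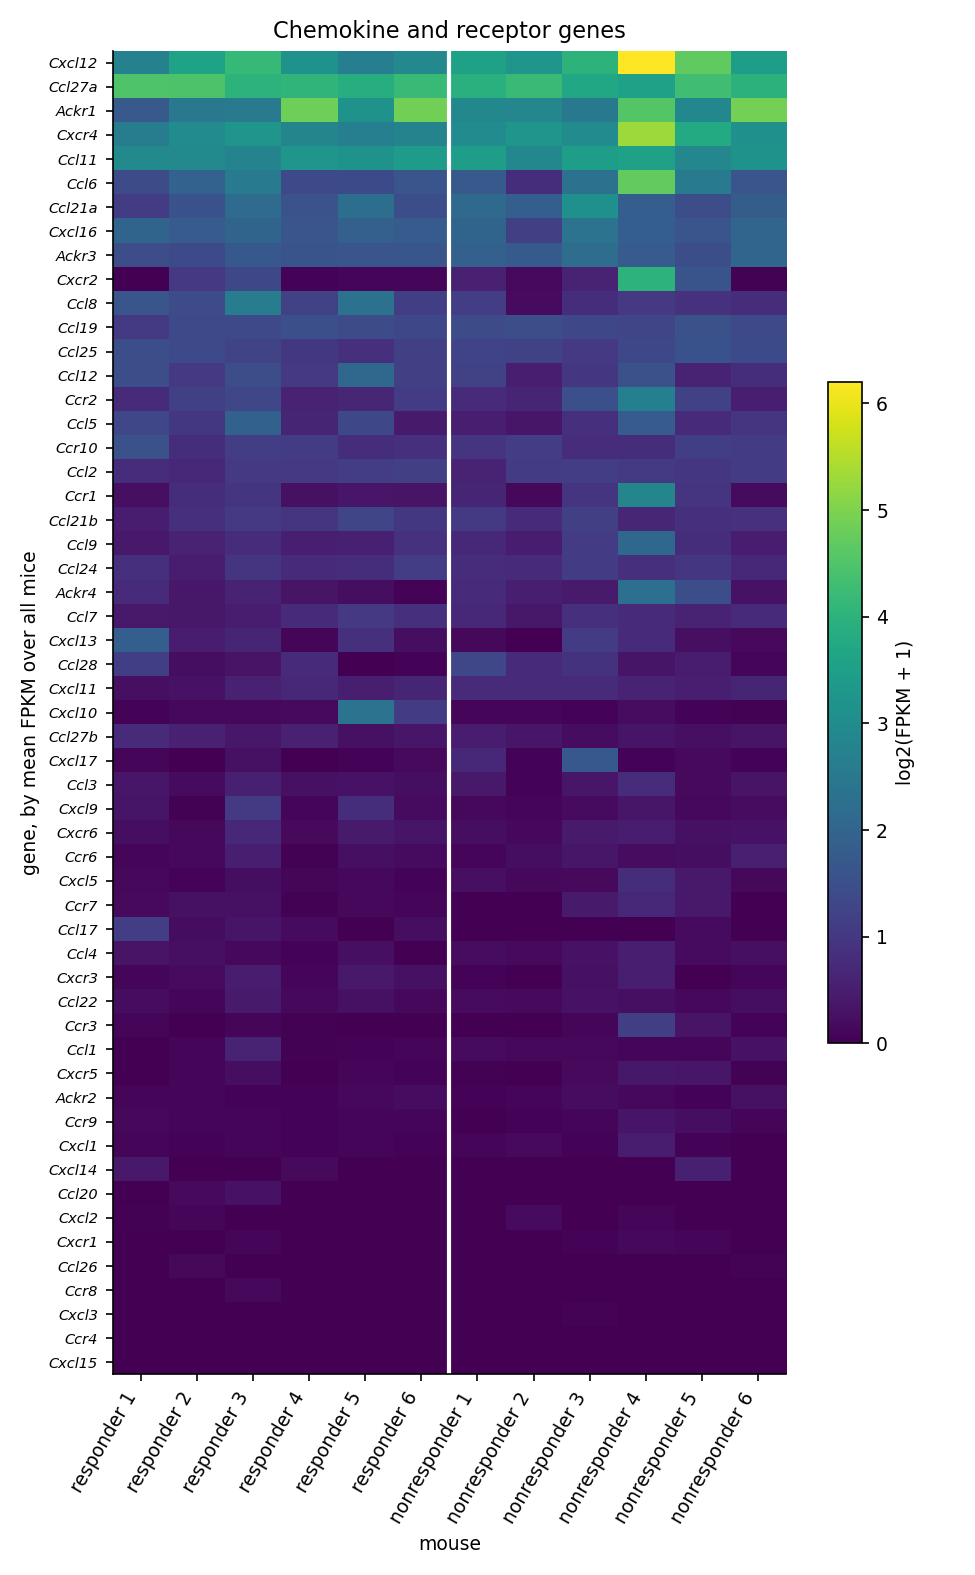
Level of 55 of the 56 chemokine and receptor genes (rows, by mean level) in each of the 12 mice (columns, responders left of the white line) as log2(FPKM + 1). Nonresponder 4 was the highest mouse for 19 of the 56 genes, among them 6 of the 19 tested, where 15.97% of all tested genes were highest in that mouse, and most rows in the lower part of the map stay near 0.

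Responders and nonresponders were compared with limma on log2(FPKM + 1) over 14203 genes, with sex as a covariate. None of the 19 tested chemokine genes was called at an adjusted p of 0.05 (0 of 19, where 0.0211% of all tested genes were called), and the smallest adjusted p of the 19 was 0.445. At an unadjusted p under 0.05 limma gave 2 of 19, Ccl8 higher and Ackr3 lower in responders, where 7.4% of all tested genes passed. The 12 genes with lower fitted values in responders and the 7 with higher ones had a median difference of -0.10 on the log2 scale, beside a median of 0.00 and 49.3% lower values over all tested genes. Without nonresponder 4 the split was 9 lower and 10 higher and the median 0.00. The response groups did not overlap for 1 of the 19 genes, Ccl8, where 0.549% of all tested genes did not overlap.

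**Figure D2:**
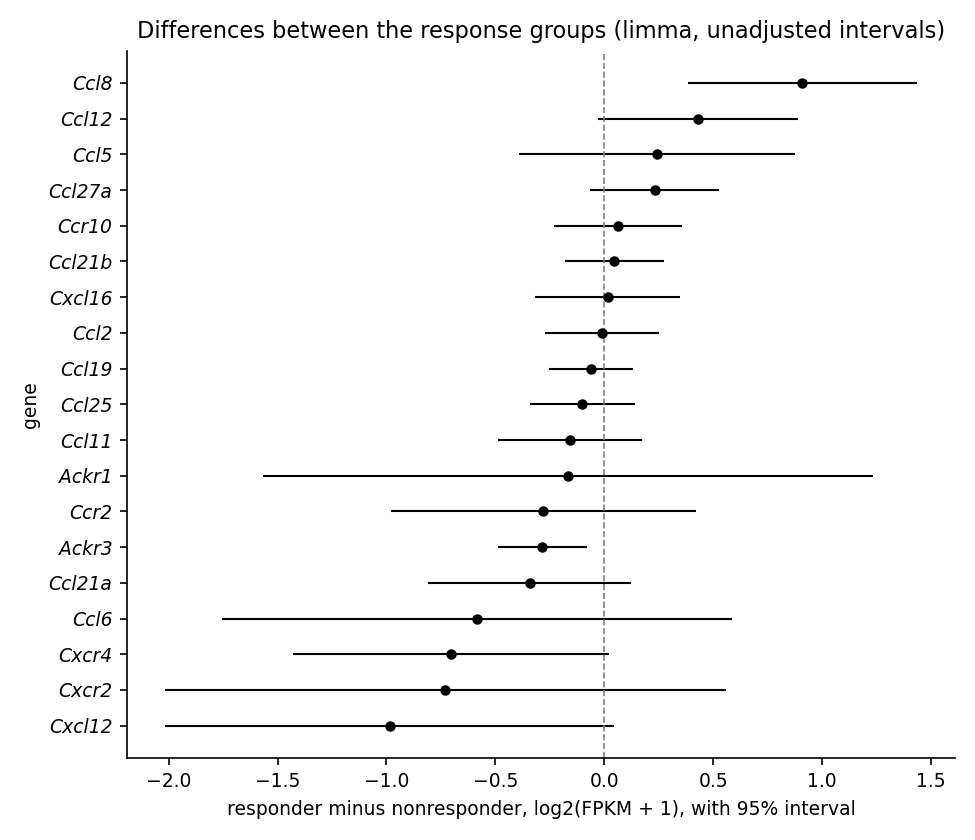
Difference between responders and nonresponders in log2(FPKM + 1) for the 19 tested genes (rows), with points for the limma estimate and lines for its unadjusted 95% interval. The intervals of Ccl8 (0.38 to 1.44) and Ackr3 (-0.49 to -0.08) lie to 1 side of 0, and those of Cxcl12, Cxcr2, Ccl6 and Ackr1 are the widest.

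Ccl8, also known as monocyte chemotactic protein 2, was the member with the clearest separation. It is a CC ligand that draws monocytes, encoded on chromosome 11 at 82115185 to 82116799 (GRCm38). Its FPKM was 2.11, 1.65, 5.04, 1.28, 3.94 and 1.21 in responders 1 to 6. In nonresponders 1 to 6 it was 1.17, 0.134, 0.742, 1.04, 0.855 and 0.744. Every responder was above every nonresponder, with a narrow gap between 1.21 and 1.17 FPKM and the highest values in responders 3 and 5. The difference was 0.91 ± 0.24 (SE) on the log2 scale, with an adjusted p of 0.445 by limma, so it was not called. With a pseudocount of 0.1 in place of 1 the difference was 1.55. Macrophage markers were mixed in direction: 6 of 13 tested genes had higher and 7 lower values in responders, with a median of -0.04 and sums of 89.5 to 289 FPKM in responders and 76.2 to 813 FPKM in nonresponders.

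The other CCR2 ligands lie beside Ccl8 in a cluster of 6 genes on chromosome 11 (82035571 to 82305690). Ccl12, a monocyte attractant of mice, ran from 1.06 through a median of 1.51 to 3.18 FPKM in responders and from 0.446 through 0.867 to 1.91 FPKM in nonresponders. Those ranges overlapped, and the difference was 0.43 ± 0.21 (SE) on the log2 scale, with an adjusted p of 0.681 by limma. Ccl2, the ligand best known for calling monocytes through CCR2, had means of 0.986 ± 0.250 FPKM in responders and 1.00 ± 0.249 FPKM in nonresponders (SD, n = 6 each), a log2 difference of -0.01 with a 95% interval from -0.27 to 0.25. Ccl7 stayed between 0.320 and 1.03 FPKM in all mice and did not enter the test. The receptor itself, Ccr2, had a median of 0.909 FPKM in responders and 1.01 FPKM in nonresponders, with 5.42 FPKM in nonresponder 4 and 1.84 FPKM or less in every other mouse. Its log2 difference was -0.28, and 0.00 without nonresponder 4. Of the 4 tested genes of this cluster, Ccl8 and Ccl12 had higher mean values in responders, Ccl2 had nearly equal ones and Ccl11 had lower ones (7.55 and 8.60 FPKM), and none passed the test.

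The window before the start of Ccl8 is shown beside those of Cxcl10 and Cxcl1, ligands induced by interferon and by NF-kappaB, since these 3 genes gave different patterns: groups that did not overlap, values above 1 FPKM in 2 mice, and values under 1 FPKM in all mice. Each window is the 250 bases before the RefSeq start (GRCm38.p6), printed in lower case on the gene's own strand at chr11:82114935-82115184 (plus strand) for Ccl8, chr5:92348890-92349139 (minus strand) for Cxcl10 and chr5:90890995-90891244 (plus strand) for Cxcl1. Capitals mark 2 motifs searched on both strands, an interferon response element (GAAA, any 2 bases, GAAA) and a kappaB site (GGG, any 2 bases, TT, any base, CC).
Ccl8: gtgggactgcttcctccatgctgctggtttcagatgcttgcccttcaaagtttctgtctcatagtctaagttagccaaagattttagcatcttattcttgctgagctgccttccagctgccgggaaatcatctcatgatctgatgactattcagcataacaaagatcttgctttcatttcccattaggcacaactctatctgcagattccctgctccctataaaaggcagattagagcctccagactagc
Cxcl10: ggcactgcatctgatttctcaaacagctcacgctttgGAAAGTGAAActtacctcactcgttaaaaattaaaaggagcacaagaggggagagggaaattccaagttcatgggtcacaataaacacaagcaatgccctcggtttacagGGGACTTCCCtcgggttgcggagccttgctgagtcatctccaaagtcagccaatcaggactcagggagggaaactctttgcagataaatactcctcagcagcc
Cxcl1: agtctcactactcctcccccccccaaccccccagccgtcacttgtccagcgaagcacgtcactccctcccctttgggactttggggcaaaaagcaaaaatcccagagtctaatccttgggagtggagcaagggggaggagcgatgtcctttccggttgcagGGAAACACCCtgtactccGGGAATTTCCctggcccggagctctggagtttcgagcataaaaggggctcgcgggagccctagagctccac
The Cxcl10 window held 1 match to each motif, the Cxcl1 window held 2 to the kappaB letters, 1 on each strand, and the Ccl8 window held none. A RefSeq window was matched for 41 of the 56 genes, with 48 windows in all because some genes have several starts. The interferon letters were in 3 of the 48 windows (Ccl19, Cxcl10 and Cxcl14), beside 2.98% of all 32851 windows of this length. The kappaB letters were in 10 of the 48 (Ccl9, Ccl19, Ccl20, Ccr3, Ccr6, Cxcl1, Cxcl2, Cxcl3, Cxcl9 and Cxcl10), beside 4.11% of all windows. A match describes the letters and is not a measured binding site, and a promoter can hold sites outside this window.

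Cxcl10, an interferon-induced ligand of CXCR3 that attracts activated T cells, did not enter the test. It was at 4.12 FPKM in responder 5 and 1.16 FPKM in responder 6, and the other 10 mice lay between 0.0247 and 0.147 FPKM. The other 4 responders were in the range of the nonresponders. Art3, which overlaps it on the opposite strand, was at 17.3 to 50.6 FPKM, and the sources used here do not say if counting was stranded. The other CXCR3 ligands stayed low, Cxcl9 at 0.0231 to 1.08 FPKM and Cxcl11 at 0.193 to 0.671 FPKM, and Cxcl9 was highest in responders 3 and 5. The receptor Cxcr3 stayed at or below 0.439 FPKM. Interferon gamma (Ifng), an inducer of these ligands, never exceeded 0.06 FPKM.

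**Figure D3:**
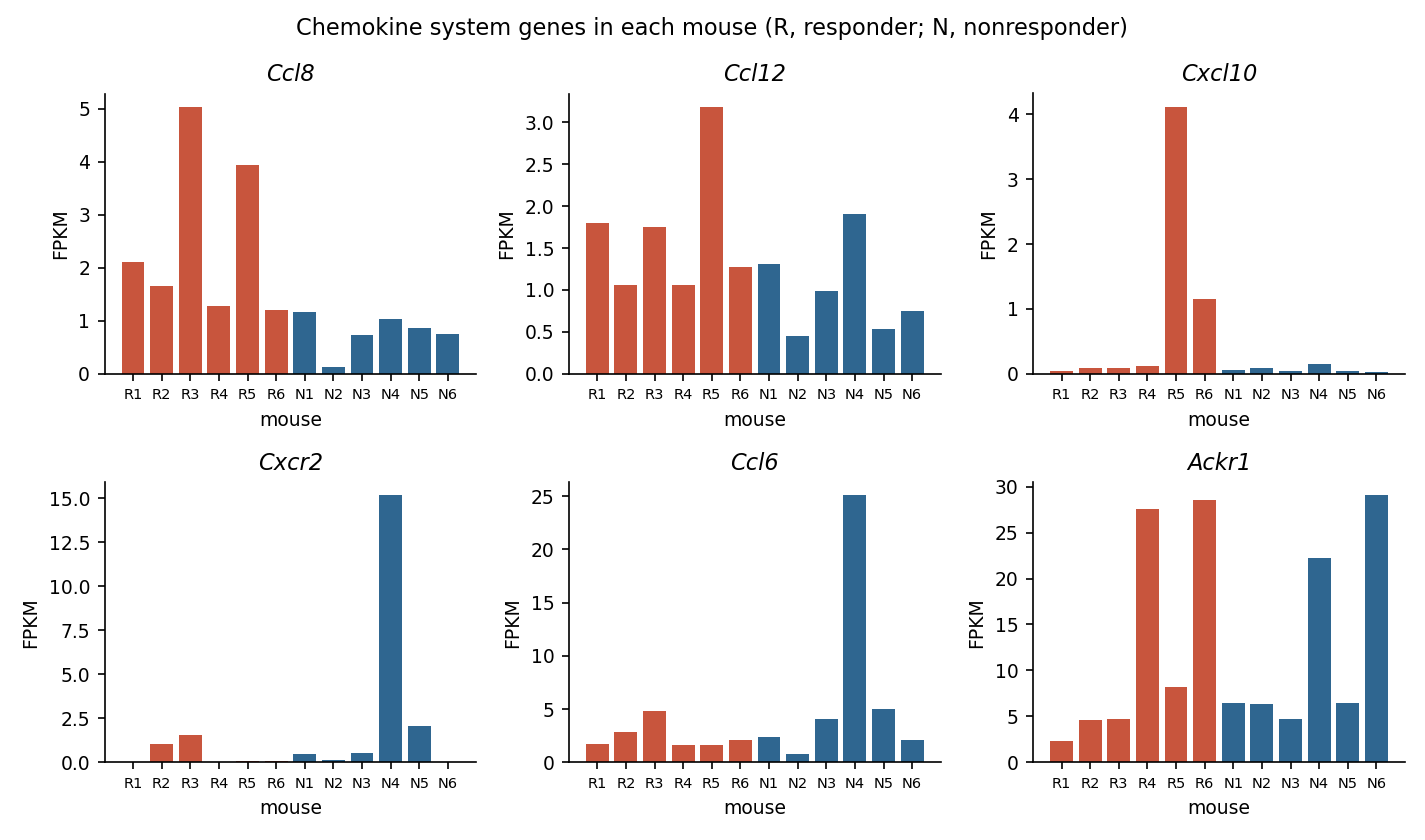
FPKM of 6 genes in each mouse, with 1 bar per mouse, responders R1 to R6 first and nonresponders N1 to N6 after them, and a scale of its own for each gene. All 6 responders are above all 6 nonresponders for Ccl8, Cxcl10 exceeds 1 FPKM in responders 5 and 6 alone, Cxcr2 and Ccl6 peak in nonresponder 4, and Ackr1 is high in 4 mice drawn from both groups.

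Cxcl12, or stromal cell-derived factor 1, was the CXC ligand with the highest level. It guides stem cells, leukocytes and neuronal precursors through the receptor CXCR4, and the atypical receptor ACKR3 removes it. It lies on chromosome 6 at 117168535 to 117181367 (GRCm38, plus strand). In responders 1 to 6 its FPKM was 5.65, 11.1, 16.7, 7.94, 5.34 and 6.62. In nonresponders 1 to 6 it was 10.7, 8.46, 15.02, 72.8, 24.6 and 10.03. The groups overlapped, with nonresponder 4 far above the rest and responder 3 above 4 nonresponders. The difference was -0.99 ± 0.47 (SE) on the log2 scale, with an adjusted p of 0.678 by limma. Without nonresponder 4 it was -0.58, and without responder 1 as well it was -0.49. Fibroblast and meningeal markers, from cells known as a source of this ligand, were also mostly lower in value: 10 of 12 tested genes had lower values in responders (5 at an unadjusted p under 0.05 and 0 called by limma), the list's median difference was -0.58, and its sums were 285 to 551 FPKM in responders and 575 to 1692 FPKM in nonresponders. None of its 14 genes was at 0 in all mice. By mouse the sums were in another order than Cxcl12: 1692 and 1257 FPKM in nonresponders 3 and 6, and 1002 FPKM in nonresponder 4. Ptgds alone gave 1193 and 1015 FPKM of the sums in nonresponders 3 and 6. Of the 14 genes, 3 were highest in nonresponder 4, among them Col1a1 (196 FPKM) and Col1a2 (284 FPKM). In nonresponder 5 these 2 genes were at 157 and 246 FPKM. Over all tested genes 49.3% had lower values in responders, and 7.4% passed an unadjusted p under 0.05 by limma in either direction. Other marker lists had lower values in responders too, with 0 genes called by limma in each: myelinating Schwann cell (9 of 9 tested genes, 5 at an unadjusted p under 0.05, median -0.54), bone or cartilage (6 of 6, 3 and -0.86), skeletal muscle (8 of 8, 1 and -1.44), adipocyte (3 of 3, 3 and -1.36) and pericyte or smooth muscle (9 of 9, 1 and -0.47). Examples are Col1a2, a collagen chain, at 76.0 ± 16.1 and 177 ± 87.2 FPKM, and Ptgds, a prostaglandin synthase of the meninges, at 218 ± 103 and 636 ± 381 FPKM, responders first (SD, n = 6 each). The part of any of these cells in the Cxcl12 values was not tested, and in whole ganglia fewer cells of a type and less RNA per cell cannot be told apart.

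Cxcr4, which marks many leukocytes and some endothelial and glial cells, had 5.17, 6.96, 8.43, 6.23, 5.40 and 5.86 FPKM in responders 1 to 6. Nonresponders 1 to 6 had 6.91, 8.39, 6.96, 38.0, 12.9 and 7.61 FPKM. All but 2 responders lay below every nonresponder, and nonresponder 4 stood alone at the top. The log2 difference was -0.70 ± 0.33 (SE), with an adjusted p of 0.678 by limma, -0.37 without nonresponder 4, and -0.31 without responder 1 as well. Ackr3 was low and even, from 1.61 through 2.08 to 2.28 FPKM in responders and from 1.79 through 2.59 to 3.64 FPKM in nonresponders. In 5 of 6 nonresponders it lay above every responder. Its log2 difference was -0.28 ± 0.09 (SE), with an adjusted p of 0.568 by limma, and nonresponder 4, at 2.45 FPKM, was not its highest mouse.

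Ligand and receptor levels were set against each other across mice for the 6 of 26 listed pairs in which both genes entered the test. Cxcl12 and Cxcr4 rose together, with Pearson's r of 0.947 (permutation p = 6e-05, adjusted over 6 pairs 0.00036) and Spearman's rho of 0.874 (permutation p = 0.00043, adjusted 0.00258) over 12 mice. The relation was seen within both groups, with r of 0.991 in the 6 responders and 0.948 in the 6 nonresponders. Without nonresponders 4 and 5, the mice farthest from the Cxcl12 median, r was 0.771. The neutrophil, macrophage and bone or cartilage marker sums were also highest in nonresponder 4 and next highest in nonresponder 5. For bone or cartilage they were 216 and 134 FPKM, with 130 FPKM in nonresponder 3 and 119 FPKM in nonresponder 1. The B cell, T or NK cell, red cell, pericyte or smooth muscle, skeletal muscle and adipocyte sums were highest in nonresponder 4 as well. The part of any of these cells in the relation was not tested. Cxcl12 and Ackr3 gave r of 0.176 and rho of 0.273 (adjusted permutation p = 0.692 and 0.518).

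**Figure D4:**
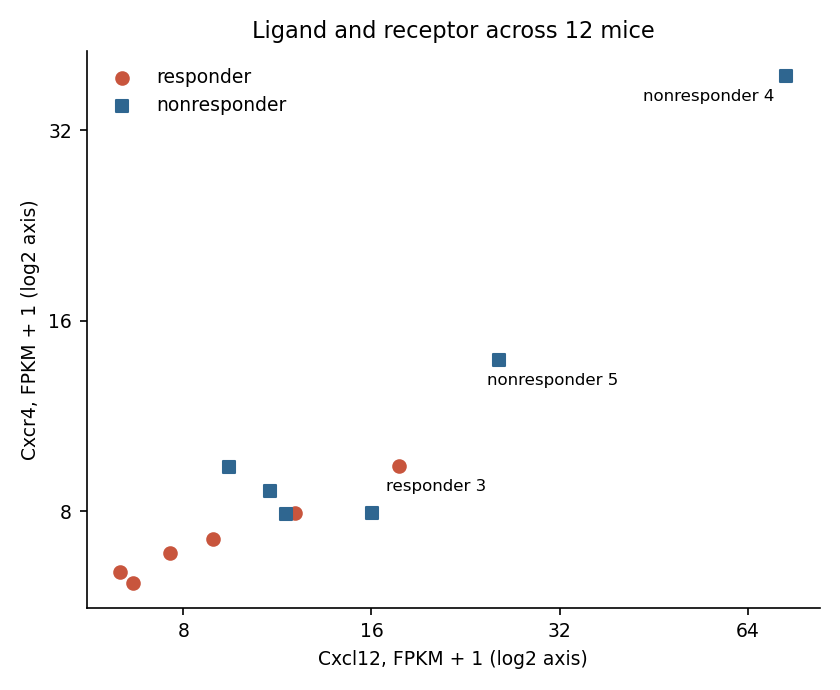
Cxcr4 against Cxcl12 in each mouse, both as FPKM + 1 on log2 axes, with circles for responders and squares for nonresponders. The points follow a rising line (r = 0.947), which nonresponders 4 and 5 extend beyond the other 10 mice.

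Ccl27a and its receptor Ccr10, a pair known from the homing of T cells to skin, gave r of 0.586 and rho of 0.685 (adjusted permutation p = 0.133 and 0.0505), and r of 0.250 without responder 1 and nonresponder 4. Ccl2 and Ccr2 gave r of 0.128 and rho of -0.105 (adjusted permutation p = 0.692 and 0.753). Ccl12 and Ccr2 gave r of 0.204 and rho of 0.252 (adjusted permutation p = 0.692 and 0.518). None of these 3 relations passed the threshold. The sixth pair, Ccl2 and Ackr1, gave r of 0.478 and rho of 0.476 (adjusted permutation p = 0.227 and 0.238) and did not pass it either. The Ackr1 values fell into separate clusters, which limits the reading of r for this pair.

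Of the receptors and ligands of neutrophils and the CCR1 ligands, Cxcr2, Ccr1, Ccl6 and Ccl9 were highest in nonresponder 4. Cxcl1, Cxcl5, Cxcr1, Ccl3 and Ccl4 were highest in that mouse too, but stayed below 1 FPKM in all mice. Cxcr2, the receptor by which neutrophils follow ELR chemokines, was at 15.2 FPKM there, 2.08 FPKM in nonresponder 5, 1.52 FPKM in responder 3, 1.04 FPKM in responder 2 and 0 to 0.523 FPKM in the other 8 mice. The same 4 mice had the highest neutrophil marker sums, at 4420, 904, 655 and 444 FPKM in that order. The log2 difference of Cxcr2 between the response groups was -0.73 ± 0.59 (SE), with an adjusted p of 0.779 by limma, and -0.17 without nonresponder 4. Responders had the lower fitted value for all 13 neutrophil markers (median -1.34), with none called by limma (0 of 13, and 0 at an unadjusted p under 0.05). The part of blood or marrow cells in these values was not tested. Of the ELR ligands of this receptor, the 5 under the symbol rule (Cxcl1, Cxcl2, Cxcl3, Cxcl5 and Cxcl15) never reached 1 FPKM in any mouse. The highest value among them was 0.768 FPKM for Cxcl5 in nonresponder 4. The other receptor of this kind, Cxcr1, stayed at or below 0.089 FPKM. Cxcr2 thus exceeded 1 FPKM in 4 mice and the 5 ligands under the rule in none. Ppbp, an ELR ligand outside the rule, had means of 8.25 ± 14.9 FPKM in responders and 52.0 ± 92.9 FPKM in nonresponders (SD, n = 6 each). It was also highest in nonresponder 4.

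Ccl6 and Ccl9, ligands of CCR1 made by myeloid cells, shared the peak in nonresponder 4. Ccl6 ran from 1.58 through 1.91 to 4.78 FPKM in responders and from 0.769 through 3.19 to 25.1 FPKM in nonresponders. The groups overlapped over most of their range. Its log2 difference was -0.58 ± 0.53 (SE), with an adjusted p of 0.807 by limma, and -0.09 without nonresponder 4. Ccl9 was at 3.25 FPKM in nonresponder 4 and at 0.347 to 1.14 FPKM elsewhere, and their receptor Ccr1 was at 6.05 FPKM in nonresponder 4 and at 0.1004 to 0.948 FPKM elsewhere. Ccl3 and Ccl4, ligands known from inflammation, stayed at or below 0.713 and 0.426 FPKM. Ccl5, a ligand made by T cells and other leukocytes, had a median of 1.26 FPKM in responders and 0.744 FPKM in nonresponders, and responder 3 and nonresponder 4 were its highest mice at 2.83 and 2.52 FPKM. Its log2 difference was 0.24 with a 95% interval from -0.39 to 0.88. Leaving out 1 mouse moved it from 0.07 (without responder 3) to 0.46 (without nonresponder 4), and it was also at least 1.5 times smaller without nonresponder 1 or 2 (0.15 and 0.14) and larger without responder 6 (0.38).

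Among the CC ligands of lymphoid tissue and epithelia, Ccl27a and Ccl19 varied little across mice. Ccl27a, a ligand of skin and other epithelia, ran from 13.6 through 16.4 to 21.5 FPKM in responders and from 10.7 through 14.7 to 18.7 FPKM in nonresponders. The ranges overlapped, and the log2 difference was 0.23 ± 0.13 (SE), with an adjusted p of 0.733 by limma. Ccl19, a ligand of CCR7 that guides dendritic cells and T cells to lymph nodes, lay between 1.08 and 1.85 FPKM in responders and 1.44 and 1.90 FPKM in nonresponders, the smallest relative spread of the 19 tested genes. Ccl25, a ligand of thymus and gut, had means of 1.31 ± 0.381 and 1.47 ± 0.313 FPKM (SD, n = 6 each, responders first). The receptors Ccr7 and Ccr9 never reached 1 FPKM, and Ccr10 lay between 0.721 and 1.89 FPKM.

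Values of several of these ligands are uncertain because the genome holds near copies whose reads can be split among them. Ccl27a matched 5 other genes at 98.6% identity or more over at least 264 bases, and 1 of them, Gm13306, was itself at 4.52 to 7.02 FPKM. For Ccl19, the pseudogene Gm12407 (99.4% over 324 bases) was at 7.06 to 18.1 FPKM, above Ccl19 itself. Cxcl16 shares 552 bases with Zmynd15, which was at 0.0886 to 0.574 FPKM. Ccl25 and Ccl27a each overlap a gene on the opposite strand, Elavl1 and Il11ra1. Ccl21a and Ccl21b are the closest pair of members, and their coding sequences of 402 bases are 99.5% identical with 2 differences, T84A and C194T, counted from the first base of the start codon with the Ccl21a base first. Bases 54 to 224 of the coding strand (GENCODE M21, GRCm38) are printed with the differing bases in capitals, to show how few reads can tell the copies apart.
Ccl21a: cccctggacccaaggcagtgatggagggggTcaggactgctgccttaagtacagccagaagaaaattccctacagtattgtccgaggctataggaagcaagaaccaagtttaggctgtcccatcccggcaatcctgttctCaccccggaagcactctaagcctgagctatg
Ccl21b: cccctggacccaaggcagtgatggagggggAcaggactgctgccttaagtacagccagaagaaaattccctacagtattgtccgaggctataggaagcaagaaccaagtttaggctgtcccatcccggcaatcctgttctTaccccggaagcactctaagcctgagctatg
Ccl21a, a ligand of CCR7, ran from 1.14 through 2.00 to 3.77 FPKM in responders and from 1.76 through 2.62 to 7.69 FPKM in nonresponders. The groups overlapped, and the log2 difference was -0.34 ± 0.21 (SE), with an adjusted p of 0.742 by limma. Ccl21b stayed between 0.422 and 1.46 FPKM over all mice. Summed with 3 further copies, the Ccl21 genes gave 5.90 ± 2.42 FPKM in responders and 6.75 ± 2.99 FPKM in nonresponders (SD, n = 6 each), a difference smaller than the spread between mice.

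Among the other ligands, Ccl11 (eotaxin, which draws eosinophils through CCR3) was steady, from 5.87 through 7.43 to 9.51 FPKM in responders and from 6.35 through 9.06 to 10.6 FPKM in nonresponders. Its log2 difference was -0.16 with a 95% interval from -0.49 to 0.17. Its receptor Ccr3 was at 1.21 FPKM in nonresponder 4 and below 1 FPKM in every other mouse. Cxcl16, a membrane-bound ligand of CXCR6 and scavenger receptor, had means of 2.64 ± 0.345 FPKM in responders and 2.69 ± 0.964 FPKM in nonresponders (SD, n = 6 each), and Cxcr6 stayed at or below 0.611 FPKM. For both ligands the difference between groups was smaller than the spread within them. Of Ccl1, Ccl17 and Ccl22, which are among the ligands of CCR4 or CCR8, only Ccl17 reached 1 FPKM, at 1.18 FPKM in responder 1 alone. Cxcl13, which draws B cells through CXCR5, reached 2.61 FPKM in responder 1 and 1.10 FPKM in nonresponder 3 and stayed under 1 FPKM elsewhere. Cxcl17 reached 1 FPKM in 1 mouse, at 2.26 FPKM in nonresponder 3. Ccl28 reached it in nonresponder 1 (1.48 FPKM) and responder 1 (1.21 FPKM), and Ccl24, with a range of 0.393 to 1.18 FPKM, in responder 6 and nonresponder 3. Ccl20, Ccl26, Ccl27b, Cxcl14, Ccr4, Ccr6, Ccr8 and Cxcr5 never reached 1 FPKM, and the highest value among them was 0.661 FPKM for Ccl27b.

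Ackr1, the Duffy antigen receptor of venules and red cells, split the mice without regard to response or sex. It was at 27.6 and 28.5 FPKM in responders 4 and 6 and at 22.3 and 29.1 FPKM in nonresponders 4 and 6, and between 2.31 and 8.16 FPKM in the other 8 mice. The 4 high mice were a male and a female of each group. The log2 difference between the response groups was -0.17 with a 95% interval from -1.57 to 1.23. An Ackr1 transcript shares 287 bases with Cadm3, a neuronal adhesion gene on the same strand at 79.7 to 152 FPKM, so that its reads may not all be its own. Endothelial markers did not split these mice, since the 4 had sums of 59.4, 63.5, 103 and 77.4 FPKM within a range of 57.6 to 118 FPKM. Red cell markers were highest in nonresponder 4 and low in nonresponder 6, at 24165 and 1974 FPKM. Ackr4, which removes CCL19 and CCL21, was at 3.83 FPKM in nonresponder 4, 1.82 FPKM in nonresponder 5 and 0.0495 to 0.691 FPKM elsewhere. Acad11 overlaps Ackr4 on the opposite strand and was at 0.346 to 3.68 FPKM. Their transcripts share 355 bases at 99.7% identity, so that reads of Ackr4 may not all be its own. Ackr2 stayed at or below 0.212 FPKM.

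**Figure D5:**
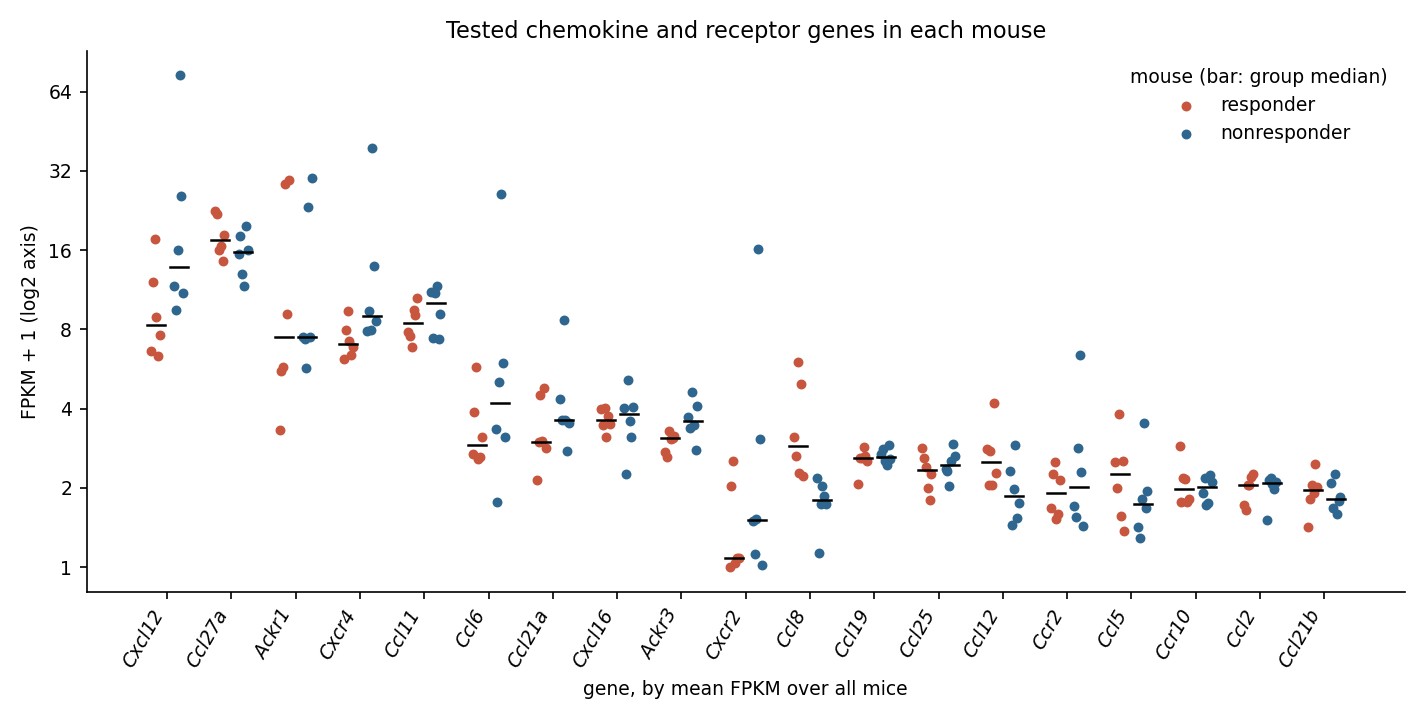
Level of the 19 tested genes in each mouse as FPKM + 1 on a log2 axis, with genes in order of their mean, responders left and nonresponders right within each gene and bars at the group medians. The groups overlap for every gene but Ccl8, and nonresponder 4 is the top point for 6 of the 19 genes (Cxcl12, Cxcr4, Ccl11, Ccl6, Cxcr2 and Ccr2), where 15.97% of all tested genes were highest in that mouse.

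Females and males were compared in the same fit. None of the 19 genes was called by limma (0 of 19, where 0.0563% of all tested genes were called), and 3 passed an unadjusted p of 0.05, where 4.53% of all tested genes did. All 3 had higher values in females, where 2.01% of all tested genes passed in that direction, and each had an adjusted p of 0.864 by limma. Ccl21a ran from 2.02 through 3.42 to 7.69 FPKM in females and from 1.14 through 1.90 to 2.63 FPKM in males, a log2 difference of 0.62 ± 0.21 (SE). Ccl21b ran from 0.847 through 1.06 to 1.46 FPKM in females and from 0.422 through 0.728 to 1.02 FPKM in males, a difference of 0.29 ± 0.10 (SE). The sexes overlapped for both copies, and the sum of the 5 Ccl21 genes was 8.03 ± 2.69 FPKM in females and 4.63 ± 1.01 FPKM in males (SD, n = 6 each), with values of 5.44 to 12.5 and 2.68 to 5.47 FPKM. Because reads of copies this similar can be split between them, the 2 genes may not be separate observations. Ackr3 had means of 2.65 ± 0.627 FPKM in females and 2.02 ± 0.354 FPKM in males (SD, n = 6 each), a difference of 0.26 ± 0.09 (SE).

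Whether the difference between responders and nonresponders itself differed between the sexes was tested by the interaction. No gene of the table was called by limma (0 of 14203, 0%), and 1 of the 19 chemokine genes, Cxcl16, passed an unadjusted p of 0.05, where 5.01% of all tested genes did. Cxcl16 had means of 2.63 ± 0.463 FPKM in female responders and 3.39 ± 0.631 FPKM in female nonresponders (SD, n = 3 each). In males the means were 2.65 ± 0.286 and 2.00 ± 0.679 FPKM. The differences ran in opposite directions, and the interaction was -0.58 ± 0.26 (SE) with an adjusted p of 0.836 by limma. Cxcr4 had an interaction of 1.2 ± 0.58 (SE) and Cxcr2 of 1.65 ± 1.12 (SE), with an adjusted p of 0.836 each. Nonresponder 4 is a male and sets the male nonresponder means of both, so that Cxcr4 was at 19.7 FPKM in male nonresponders and at 6.0 to 7.16 FPKM in the other 3 sets of mice. Within males none of the 19 genes was called by limma (0 of 19, where 0.0141% of all tested genes were). In males 2 passed an unadjusted p of 0.05 by limma, where 6.78% of all tested genes did. These were Cxcr4 at -1.30 ± 0.41 and Cxcl12 at -1.62 ± 0.64 (log2 difference, SE). Cxcl12 was at 35.3 ± 33.4 FPKM in male nonresponders and 7.78 ± 2.88 FPKM in male responders (SD, n = 3 each). Nonresponder 4, at 72.8 FPKM, is one of those male nonresponders. Within females none was called either (0 of 19, where 0.00704% of all tested genes were), and 2 passed an unadjusted p of 0.05, where 6.81% of all tested genes did: Ccl8 at 1.12 ± 0.34 and Ackr3 at -0.39 ± 0.13 (log2 difference, SE).

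Relatives of the family outside the symbol rule, its signalling genes and its inducers were taken as lists. Of 12 relatives 7 entered the test, and 5 had lower and 2 higher values in responders, with a median of -0.32 and none called by limma (0 of 7, and 0 at an unadjusted p under 0.05). Ppbp, a platelet chemokine, was at 238 FPKM in nonresponder 4 and at 0.097 to 47.1 FPKM elsewhere. Rarres2 (chemerin, an attractant of macrophages and dendritic cells) had means of 21.6 ± 4.22 FPKM in responders and 26.0 ± 2.23 FPKM in nonresponders (SD, n = 6 each), a log2 difference of -0.27 with an adjusted p of 0.676 by limma. Dpp4, the protease that trims chemokines, had a log2 difference of -0.40 and an adjusted p of 0.680 by limma. Of 42 genes of receptor signalling, such as G protein subunits, arrestins and kinases, 35 were tested, with 23 lower and 12 higher in value, a median of -0.10 and none called by limma (0, and 0 at an unadjusted p under 0.05). Of 20 genes that induce inflammatory chemokines 12 were tested, with 6 lower and 6 higher in value, a median of 0.00, none called by limma (0, and 1 at an unadjusted p under 0.05). Tnf and Il17a were listed at 0 in all mice.

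By position, 36 of the 56 genes lay in 9 clusters with gaps under 1000000 bases, and 20 lay alone. The level within a cluster was uneven. The 5 ELR ligands under the symbol rule, at 90759360 to 90905938 on chromosome 5, were all below 1 FPKM. By contrast, 4 of 6 genes around Ccl2 and Ccl8 and 4 of 5 around Ccl27a and Ccl19 (chromosome 4, 41769467 to 42773993) entered the test. Of the 6 receptor genes at 123678439 to 124147699 on chromosome 9, only Ccr2 entered it.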

How the data were processed

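Members, gene lists and alternatives were chosen with earlier results of these data known. Libraries were made with poly A selection and sequenced as paired-end reads, per the labels' protocols. The submitters' processing notes name STAR 2.6.0a and StringTie 1.3.5 and the builds GRCm38 and mm10. The sources used here do not give annotation, settings or strand use. A single table of values per gene and mouse was deposited by the authors and taken as FPKM from its values because the header names no unit. Raw counts were not used. Total FPKM per mouse ran from 286388 to 358590, and value steps implied 18000000 to 39900000 fragments per mouse, an estimate that is weak for responder 5; precision differed between mice accordingly. An exact 0 was read as a listing. The table had 0 columns of other samples and 0 identical pairs of columns.

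Symbols and coordinates came from GENCODE M21 (51076 of 51341 identifiers matched). The 14203 genes that reached 1 FPKM in 3 mice or more were tested on the log2(FPKM + 1) scale by limma 3.58.1 (R 4.3.3, eBayes with 2.23 prior degrees of freedom). Differences on this scale understate changes of low genes. The response and sex contrasts came from 1 additive model, the interaction from 4 cell means, and p values were adjusted over all genes tested by Benjamini-Hochberg (2-sided, 0.05). Correlations used 100000 permutations, 2-sided, on the same scale. The procedure was tested on simulated data. Each library is 1 mouse; replicate numbers of the titles do not pair the mice. Values are named for the 12 members with the highest mean, the 8, 3 and 3 with the smallest p in the response, sex and interaction contrasts, and the 4 untested members with the highest single value; other names give levels by role and, with Ifng, Art3, Cadm3, Gm12407 and Gm13306, were chosen after values were seen. Some genes are not reported here. Near copies were searched with blastn 2.17.0 (at least 90% identity over at least 200 bases). Cxcr2 matched 64 other genes (longest match 537 bases, highest identity 96.1%) and was left out of the listing of copies. Its reads may therefore not all be its own. Alternatives covered pseudocount, filter, scaling, model and mice left out.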

Additional observations from a re-analysis of the deposited data

Results flagged for a closer look

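In 5 of 46 groups of 6 mice, the value of 1 mouse lay far from the others by Dixon's 95% criterion on the log2 scale. The groups covered the 19 tested genes and the 4 untested genes with the highest single value, Ccr1 among them. Chance gives about 1 group in 20, but this rate does not hold for those 4 genes, which were picked for a high single value. Nonresponder 4 was the mouse in 2 of the 5 groups. Cxcr4 was at 38.0 FPKM in nonresponder 4 and at 6.91 to 12.9 FPKM in the other nonresponders, and Ccr1 was at 6.05 FPKM there and at 0.1004 to 0.948 FPKM in the others. The neutrophil, macrophage and B cell marker sums were also highest in that mouse. Ccl8 was at 0.134 FPKM in nonresponder 2, below the 0.742 to 1.17 FPKM of the other nonresponders, and all 6 nonresponders lay below every responder. Ccl2 was at 0.511 FPKM in nonresponder 1 against 0.984 to 1.17 FPKM in the other nonresponders. Ccl19 was at 1.08 FPKM in responder 1 against 1.53 to 1.85 FPKM in the other responders.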

How the results depend on the processing

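No chemokine gene was called under any of 25 alternatives to the response comparison (0, with a smallest adjusted p of 0.266), and 13 of the 19 tested genes kept their direction in all of them. The count of chemokine genes at an unadjusted p under 0.05 by limma was 4 after rescaling to TPM and 2 to 4 with each mouse left out in turn. It was 4 without responder 3, nonresponder 2 or nonresponder 4. The main fit gave 2 of 19, where 7.4% of all tested genes passed. That share was not taken under the alternatives, so a change in the count cannot be read as particular to the chemokine genes. Over all genes, 1 was called with the replicate number as a block and 1 with averages over mice that share the sample code's first number, against 3, and 2 to 6 with each mouse left out (5 without responder 2, 6 without responder 5 or 6). Numbers of the titles gave correlations between -0.27 and 0.13, so they do not pair the mice, and the block called 0 chemokine genes. Leaving out each mouse moved the median of the 19 differences between -0.15 and 0.00.

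The other 6 genes changed sign under at least 1 alternative. Ccl2 was 0.0397 after quantile normalization, 0.011 with array weights, 0.0156 with averaged mice and 0.0429 without responder 1 and nonresponder 4. Cxcl16 was -0.0289, -0.121 and -0.0098 under the last 3 of these settings, and Ackr1 was 0.0745, 0.114 and 0.361. Ccr10 was -0.0549 with array weights and -0.0693 without both mice, where Ccr2 was 0.0489. With each mouse left out, the ranges were -0.100 to 0.0456 for Ccl2, -0.101 to 0.0997 for Cxcl16, -0.553 to 0.149 for Ackr1, -0.0373 to 0.120 for Ccr10, -0.451 to 0.00457 for Ccr2 and -0.00295 to 0.109 for Ccl21b. The cause of these changes was not tested. Levels under 1 FPKM rest on few fragments, which limits what could be detected there.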
